A study of Mus musculus with 24 samples.

Results

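The genes described here encode 10 enzymes and carriers of mitochondrial fatty acid oxidation: Cpt1a, Slc25a20, Cpt2, Acadvl, Acadl, Acadm, Hadha, Hadhb, Acaa2 and Etfdh. Each was followed through the probe set that names this gene symbol and no other, and where a gene had several, through the brightest by its mean over all arrays. All 10 were found among the 19938 genes measured. Gene expression was profiled on Affymetrix arrays in inguinal fat, a subcutaneous white depot of the mouse, and the values are log2 expression after RMA, a method that corrects, normalizes and summarizes probe signals. Knockout mice carried aP2-Cre+/- Bmal1fx/fx and control mice Bmal1fx/fx without the recombinase, so that both genotypes had floxed alleles and only the knockouts had Cre. Bmal1, whose gene symbol is Arntl, is a core transcription factor of the circadian clock, and the aP2 promoter (of the gene Fabp4) directs Cre mainly to adipocytes. No measurement here tells whether Cre also acted in further cell types of the tissue. All animals had at least 6 generations of crossing to C57BL/6J, ate chow, had been in darkness for 36 h when collection began and were fasted for 24 h before death. Their age is not given in the sources used here. Tissue was taken at 4 circadian times from 3 mice of each genotype, which gave 8 groups and 24 arrays. The times are CT0, when the subjective day begins, and CT6, CT12 and CT18 after it. The labels call the 3 arrays of a group biological replicates, and their number limits the precision of each value.

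Long-chain fatty acids enter mitochondria as carnitine esters. CPT1A, on the outer membrane, makes the ester and is the rate-controlling step of the pathway, the carrier SLC25A20 exchanges it across the inner membrane, and CPT2 returns it to the coenzyme A ester. Inside, acyl-CoA dehydrogenases of different chain length preference start each round, the trifunctional protein of HADHA and HADHB and the thiolase ACAA2 complete it, and the electrons taken by the dehydrogenases reach ubiquinone through ETFDH. In fasting, white fat mainly releases fatty acids for other organs, and it oxidizes part of them itself.

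Promoter sequences are shown for the pairs of genes whose levels moved most closely from array to array or that share a promoter. RefSeq start sites (GRCm38.p6) from the sequence table were used for 9 of the 10 genes. The promoter of Acaa2 was left out and not searched. Hadha and Hadhb are divergent neighbours on chromosome 5, and 272 bases lie between their start sites. Their promoter windows, of 250 bases before to 50 bases after the start, overlap by 228 bases. The stretch between the starts is chr5:30154981-30155252, read on the plus strand, in the direction of Hadhb. For Cpt2 and Slc25a20 the 250 bases before the start are shown, chr4:107923590-107923839 on the minus strand and chr9:108661886-108662135 on the plus strand, each in the direction of its gene. Capitals mark the GC box GGGCGG on either strand.
Hadha to Hadhb: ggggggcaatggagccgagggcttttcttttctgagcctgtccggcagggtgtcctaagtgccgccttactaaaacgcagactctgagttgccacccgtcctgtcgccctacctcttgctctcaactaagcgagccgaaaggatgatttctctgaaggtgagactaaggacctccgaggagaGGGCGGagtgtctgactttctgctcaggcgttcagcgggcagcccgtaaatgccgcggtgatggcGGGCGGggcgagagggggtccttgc
Cpt2: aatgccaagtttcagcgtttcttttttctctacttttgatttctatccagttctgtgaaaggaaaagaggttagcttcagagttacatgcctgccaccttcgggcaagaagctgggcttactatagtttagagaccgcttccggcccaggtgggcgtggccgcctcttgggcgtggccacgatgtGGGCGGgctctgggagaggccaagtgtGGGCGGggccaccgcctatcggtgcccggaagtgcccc
Slc25a20: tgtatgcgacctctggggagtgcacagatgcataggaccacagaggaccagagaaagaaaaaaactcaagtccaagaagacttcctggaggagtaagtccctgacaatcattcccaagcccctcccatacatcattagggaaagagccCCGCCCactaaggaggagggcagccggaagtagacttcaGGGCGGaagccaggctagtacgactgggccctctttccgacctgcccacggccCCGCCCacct

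The 3 stretches have no match to TATAAA, and they hold 2, 2 and 3 GC boxes. Over the full windows, 7 of the 9 genes had GGGCGG on at least 1 strand, against 35.7% of all 32851 promoter windows in the table. The windows of Hadha and Hadhb overlap, and the only GC box in the Hadha window is a site that also counts for Hadhb. CCAAT was found in 2 of 9 (37.4% of all windows), AGGTCA, the nuclear receptor half-site, in 3 of 9 (16.3%), and TATAAA in 0 of 9 (13.6%). The E-box CACGTG, the letters that BMAL1 with CLOCK binds, was in 0 of the 9 windows, against 7.15% of all windows. TCAAGGTCA, the element of the estrogen-related receptors, which contains AGGTCA, was also in 0 of 9 (0.423% of all). Both strands were searched for each motif. A match is a match of letters only, and a motif without one can still lie outside these windows.

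Some arrays stood apart, and their values bear on nearly every result. The adipocyte markers were high on all arrays, with Adipoq, which encodes adiponectin, at 11.77 to 12.13 and Fabp4 at 12.38 to 12.66. Knockout replicate 2 at CT0 was the lowest of the 24 arrays for the 11 measured of 12 adipocyte markers, whose mean lay 0.58 below its average over the arrays. The lipid droplet gene Plin1 read 8.66 there, against a median of 9.61. On the same array the mean of the 10 epithelial markers was 0.96 above its average, with Epcam at 7.63 against 5.53 on the next highest array and Cdh1 at 7.18. Knockout replicate 2 at CT6 had liver markers 2.37 above their average, over 7 measured of 8, with albumin (Alb) at 11.15 against a median of 7.51. Thermogenic markers were 0.56 above their average in control replicate 2 at CT0 and 0.59 in control replicate 2 at CT6, where Ucp1 read 5.34 and 6.02 against a median of 4.41. The means of the 12 skeletal muscle markers stayed within -0.12 and 0.10 of their average on every array.

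Arntl itself, the targeted gene, read 7.97 ± 0.0025 (SD, n = 3) in control and 7.43 ± 0.12 in knockout fat at CT0, but 6.34 ± 0.37 and 6.74 ± 0.25 at CT12. The labels do not name the deleted exons, so its probe set cannot check the deletion. Among the arrays, 4 lay toward the other genotype for a gene that separates the genotypes at CT0 and CT6, Ces1d: at CT12 the knockout and the control numbered 1, and at CT18 those numbered 3. For this carboxylesterase gene the CT12 pair read 11.06 (knockout) and 10.32 (control), where the other knockouts of that time read 9.99 and 10.26 and the other controls 10.93 and 11.09. The CT18 pair read 10.75 (knockout) and 10.51 (control), against 10.33 and 10.12 in the other knockouts and 10.90 and 10.80 in the other controls. Kcnj15, a potassium channel gene that also separates the genotypes at CT0 and CT6, set mainly the knockouts of these pairs apart. They read 8.23 at CT12 and 8.21 at CT18, against 6.67 to 7.31 in the other knockouts of these times. The paired controls read 7.78 and 7.77, each the lowest control of its time, and the other controls read 7.91 to 8.33. At CT12 both arrays numbered 1 also lay toward the other genotype for Arntl. The knockout read 6.46, against 6.89 and 6.87 in the others, and the control 6.75, against 6.04 and 6.22. At CT18 the Arntl values of both genotypes overlapped. Every library is used under its label, and results are also given without these 4 arrays, a choice that rests on such genes, picked after their values were seen. Adipose tissue was measured in bulk, so that fewer cells of a type and less RNA per cell cannot be told apart.

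**Figure D1:**
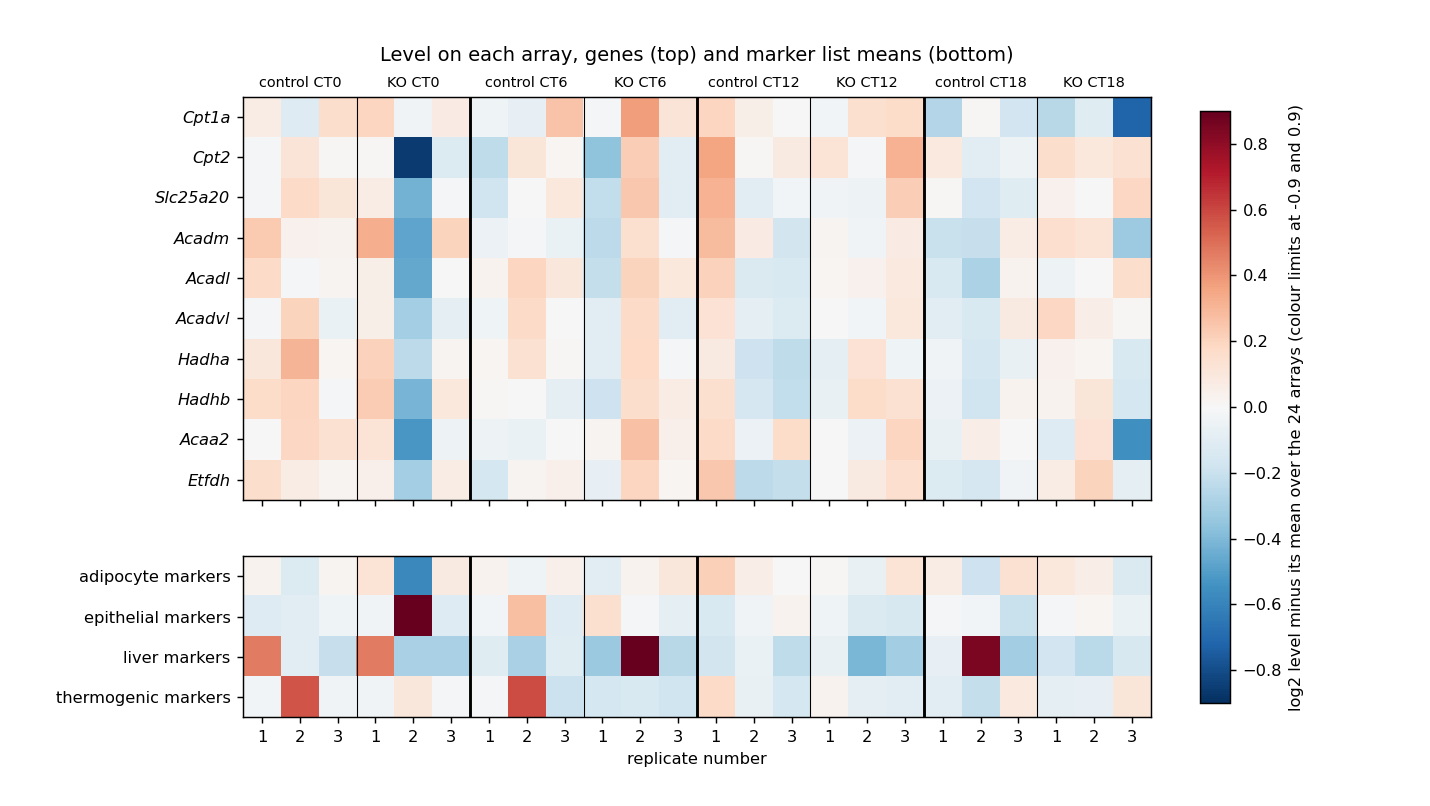
Log2 level minus its own mean over the 24 arrays, for the 10 genes (rows, top) and for the mean of 4 marker lists (rows, bottom), with arrays in columns by circadian time, genotype and replicate. The column of knockout (KO) replicate 2 at CT0 is low for 9 of the genes and for adipocyte markers and high for epithelial markers; colours stop at -0.9 and 0.9, so the liver value of 2.37 is beyond the scale.

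The deletion of Bmal1 was first compared with control as a mean over the 4 times, which asks whether the oxidation genes differ with genotype at any level common to the day. None of the 10 genes passed an adjusted p of 0.05 in limma (Benjamini-Hochberg over all 19938 genes), against 0.0201% of all genes. At an unadjusted p under 0.05 the count was also 0 of 10, against 6.07% of all genes. Differences, knockout minus control on the log2 scale, ran from -0.08 for Acaa2 to 0.06 for Etfdh, with standard errors of 0.05 to 0.08 (n = 12 arrays a genotype). Their median was -0.01, and that of all genes was 0.00077. In all, 8 of 10 were below 0, against 49.4% of all genes, but 1 of 10 was without knockout replicate 2 at CT0 (median 0.03), and 4 of 10 were after a further quantile normalization. The 95% intervals of the 10 genes lay within -0.24 (Cpt2) and 0.18 (Etfdh), or 0.846- to 1.13-fold. Markers of other cell types were read beside these values. Of the 10 endothelial markers 10 were lower in knockout fat for the mean over the times (median -0.16), 6 at an unadjusted p under 0.05 and 0 after adjustment, and of the 9 measured of 11 lymphocyte markers 9 were lower (median -0.11). The medians were -0.05 for adipocyte markers, -0.18 for the 8 thermogenic, 0.0049 for the 10 macrophage, -0.03 for the 8 measured of 10 fibroblast and progenitor, -0.04 for the 8 smooth muscle, 0.01 for the skeletal muscle, 0.08 for the epithelial and 0.11 for the liver markers, and 0 of any list passed. Their part in the values of the 10 genes was not tested.

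**Figure D2:**
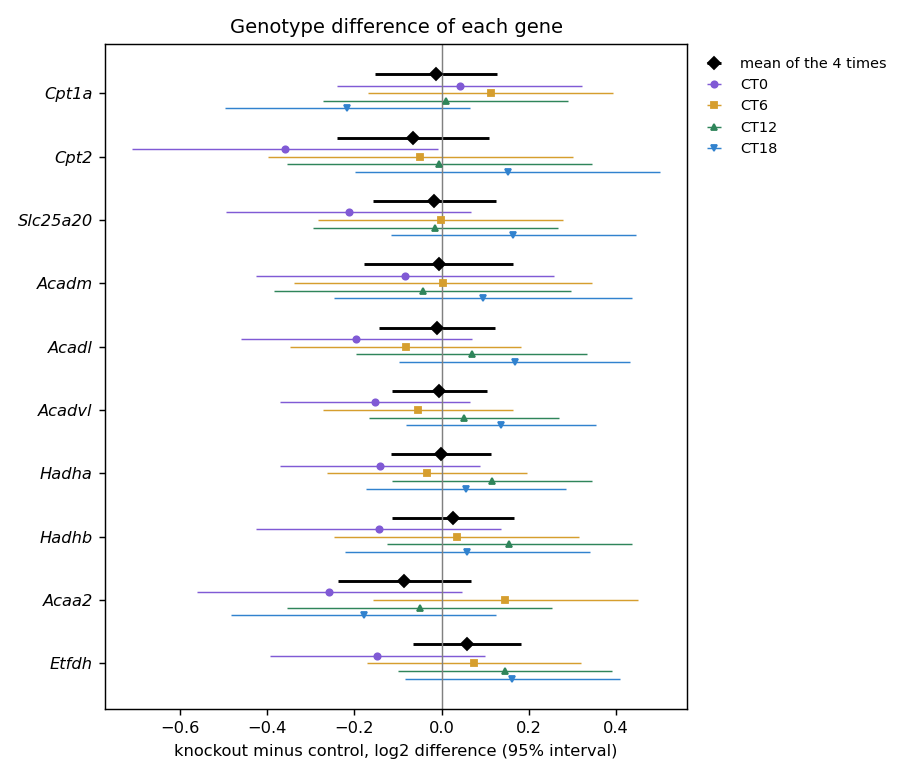
Knockout minus control log2 difference of each gene (horizontal axis) with 95% intervals from limma, as the mean over the 4 times (black diamonds) and at each circadian time (coloured points). The black intervals all cross 0 and stay between -0.24 and 0.18, and at CT0 all genes but Cpt1a lie below 0.

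The carnitine shuttle genes are described first. Cpt1a, the entry step, had its lowest mean at CT18 in both genotypes, 7.60 in control and 7.38 in knockout fat. In control fat it read 7.80, 7.62 and 7.90 at CT0, 7.70, 7.67 and 7.997 at CT6, 7.94, 7.80 and 7.74 at CT12, and 7.48, 7.75 and 7.56 at CT18. In knockout fat it read 7.93, 7.71 and 7.81 at CT0, 7.73, 8.12 and 7.85 at CT6, 7.72, 7.88 and 7.90 at CT12, and 7.49, 7.63 and 7.02 at CT18. All 3 knockout arrays at CT18 lay below all 9 knockout arrays of the other times, whereas the control arrays at CT18 overlapped those of the other times. How many of all genes show such a separation was not counted. Over both genotypes the mean was 7.80 ± 0.12 at CT0, 7.84 ± 0.18 at CT6, 7.83 ± 0.09 at CT12 and 7.49 ± 0.25 at CT18 (SD, n = 6).

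Change over the 4 times was tested with limma's F test. For both genotypes together Cpt1a had F = 6.21 with an unadjusted p of 0.00344 and an adjusted p of 0.117, so it did not pass. None of the 10 genes passed, against 0.883% of all genes. Cpt1a was the 1 gene of the 10 with an unadjusted p under 0.05, against 16.1% of all genes. In control fat the counts were 0 of 10 adjusted (0.0602% of all genes) and 0 of 10 unadjusted (5.8%), with an adjusted p of 0.948 for Cpt1a. In knockout fat they were 0 of 10 (0.0702%) and 2 of 10 (13.4%), namely Cpt1a (adjusted p = 0.190) and Cpt2 (adjusted p = 0.342). From CT6 to CT18 Cpt1a differed by -0.52 ± 0.13 (SE) in knockout fat (unadjusted p = 0.000929, adjusted p = 0.195) and by -0.19 ± 0.13 in control fat (adjusted p = 0.777). The counts for this step were 0 of 10 in knockout fat (0.0201% of all genes) with 1 unadjusted (11.8%), and 0 of 10 in control fat (0.0602%) with 0 unadjusted (7.74%).

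The size of the Cpt1a step rested on single arrays. Without knockout replicate 3 at CT18, which read 7.02, the step was -0.34 ± 0.12 (adjusted p = 0.617), and without knockout replicate 2 at CT18 it was -0.64 ± 0.14 and passed (adjusted p = 0.0408). Without knockout replicate 2 at CT6, the array with high liver markers and the highest Cpt1a value, it was -0.41 ± 0.14 (adjusted p = 0.480). Knockout replicate 3 at CT18 was also described above as lying toward the other genotype, with Ces1d at 10.75 and Kcnj15 at 8.21. Arntl does not decide whether its label is right, since the Arntl values of both genotypes overlapped at CT18. This array also had fibroblast and progenitor markers 0.46 and macrophage markers 0.43 below their averages. The part of these markers in the Cpt1a value was not tested. The difference between the genotypes in the course over time was tested as an interaction, and Cpt1a had F = 1.11 (adjusted p = 1.00). None of the 10 genes passed the interaction test, with 0 of 10 also at an unadjusted p under 0.05, against 0% and 2.98% of all genes.

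**Figure D3:**
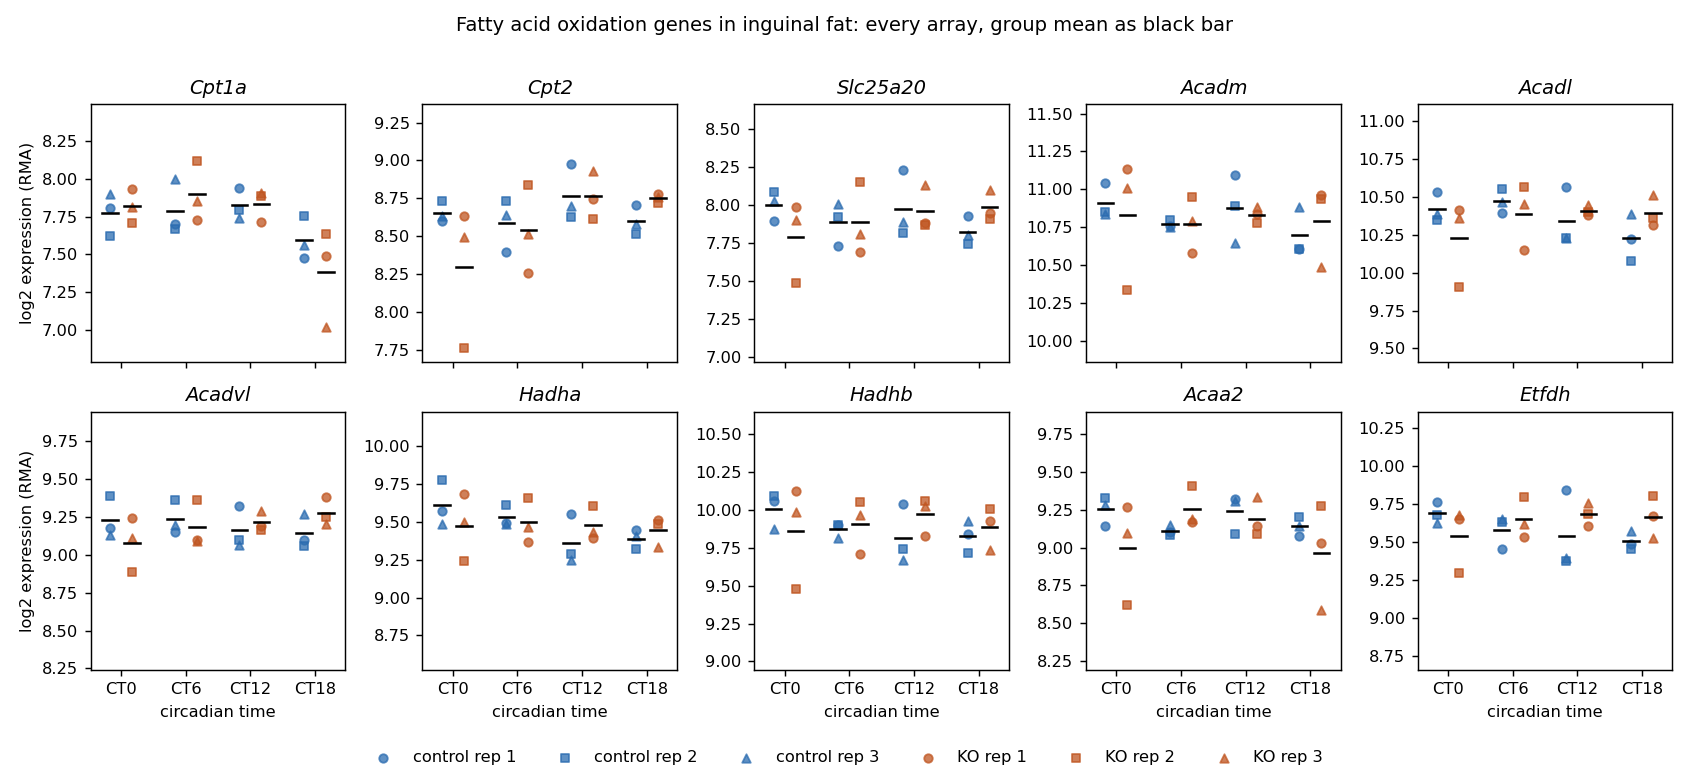
Log2 expression of each of the 10 genes (vertical axes, all spanning 1.7 log2 units) on every array by circadian time; blue is control, orange is knockout (KO), marker shape is the replicate number and the black bar is the mean of 3 arrays. Cpt1a is lowest at CT18, where the knockout arrays read 7.49, 7.63 and 7.02, and Cpt2 has 1 knockout array at 7.76 at CT0, below all its other values.

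Cpt2, the inner membrane partner of CPT1A, had the widest range of the 10 genes, 1.21 log2 units. In control fat it read 8.60, 8.73 and 8.63 at CT0, 8.39, 8.73 and 8.64 at CT6, 8.98, 8.63 and 8.70 at CT12, and 8.71, 8.52 and 8.58 at CT18. In knockout fat it read 8.63, 7.76 and 8.49 at CT0, 8.26, 8.84 and 8.52 at CT6, 8.75, 8.61 and 8.93 at CT12, and 8.78, 8.72 and 8.76 at CT18. A single array, knockout replicate 2 at CT0 with 7.76, lay 0.50 below the next lowest. Cpt2 differed by genotype at CT0 by -0.36 ± 0.17 (SE, unadjusted p = 0.0448, adjusted p = 0.894), and without that array by -0.09 ± 0.14 (adjusted p = 0.999). From CT0 to CT12 in knockout fat its difference was 0.47 ± 0.17 (unadjusted p = 0.0113, adjusted p = 0.347), and without that array 0.20 ± 0.14. At CT18 the knockout arrays of Cpt2 all lay above the control arrays, with a difference of 0.15 ± 0.17.

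Slc25a20, the carrier between both carnitine transferases, had group means between 7.79 and 8.004, and its 24 arrays ran from 7.49 to 8.23. Its genotype difference was -0.21 ± 0.14 at CT0, -0.00 ± 0.14 at CT6, -0.01 ± 0.14 at CT12 and 0.16 ± 0.14 at CT18, with overlapping groups at each time. Without knockout replicate 2 at CT0 the first was -0.06 ± 0.13, and without the array with high liver markers the second was -0.14 ± 0.14. Neither Slc25a20 nor Cpt2 showed the low level of Cpt1a at CT18: over both genotypes Slc25a20 read 7.91 ± 0.12 and Cpt2 8.68 ± 0.10 at that time (SD, n = 6). The carrier and Cpt2 nevertheless varied together. Over the 24 arrays, after removal of the group means, their Pearson correlation was 0.92 (Spearman 0.94), the highest of the 45 pairs, and 0.91 over 23 arrays without knockout replicate 2 at CT0. Their upstream sequences, given above, each hold GC boxes within the last 102 bases before the start. Those of Cpt1a, Acadl and Hadhb do too, so this does not set the pair apart. Cpt1a correlated with Cpt2 at 0.33 and with Slc25a20 at 0.28. Without knockout replicate 2 at CT0 and knockout replicate 2 at CT6 these were 0.07 and 0.01.

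The acyl-CoA dehydrogenase genes covered the 3 chain length classes. Acadvl, for very long chains, had the smallest spread within groups of the 10 genes, a residual SD of 0.13, and group means of 9.08 to 9.28. Acadl, for long chains, had group means of 10.23 in knockout and 10.42 in control fat at CT0, and of 10.40 and 10.23 at CT18. Acadm, for medium chains, read 11.04, 10.85 and 10.84 in control and 11.14, 10.33 and 11.01 in knockout fat at CT0. The low knockout array was again replicate 2, and without it the CT0 difference of Acadm turned from -0.08 ± 0.16 to 0.16 ± 0.14 (neither passed). For Acadl the CT0 difference was -0.20 ± 0.13 with that array and -0.03 ± 0.12 without it, and for Acadvl -0.15 ± 0.10 and -0.05 ± 0.11. At CT18 all 3 genes had a higher mean in knockout fat, by 0.14 for Acadvl, 0.17 for Acadl and 0.10 for Acadm, with overlapping arrays and adjusted p-values from 0.883 to 0.966.

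Hadha and Hadhb encode the alpha and beta subunits of the trifunctional protein, which carries the hydratase and hydroxyacyl-CoA dehydrogenase activities on the former and the thiolase on the latter. In control fat Hadha read 9.57, 9.78 and 9.49 at CT0 and 9.55, 9.29 and 9.25 at CT12, a difference of -0.25 ± 0.11 (SE, unadjusted p = 0.0328, adjusted p = 0.952) with overlapping arrays. Hadhb read 10.06, 10.09 and 9.87 at CT0 and 10.04, 9.74 and 9.67 at CT12 in control fat (-0.19 ± 0.14). In knockout fat the same step was 0.00 ± 0.11 for Hadha and 0.11 ± 0.14 for Hadhb. It was -0.11 ± 0.11 and -0.08 ± 0.12 without knockout replicate 2 at CT0, the same sign as in control fat. Of the 10 genes, 0 passed for this step in control fat (0.0401% of all genes) and 1 had an unadjusted p under 0.05 (4.94%). In knockout fat the counts were 0 (0.0953%) and 1 (9.77%), the latter being Cpt2.

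The levels of the 2 subunit genes followed each other, with a Pearson correlation of 0.86 (Spearman 0.85) over the 24 arrays and 0.89 after removal of the group means. Both lie head to head around the stretch printed above, and the values share arrays, input and normalization. Hadhb was measured by 2 probe sets. The numbers of the one used stand among those of genes on chromosome 2, for 10 of its 10 nearest neighbours, although Hadhb is on chromosome 5, and the other stands among genes of chromosome 5, also for 10 of 10. Both correlated at 0.995 with each other, and the other had a correlation of 0.84 with Hadha, against 0.86 for the one used. What the used probe set matches on chromosome 2 was not tested.

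Acaa2, the thiolase for medium chains, and Etfdh, the last electron carrier before ubiquinone, had the lowest and the highest mean difference between genotypes. In control fat Acaa2 read 9.14, 9.33 and 9.28 at CT0, 9.10, 9.08 and 9.15 at CT6, 9.32, 9.09 and 9.31 at CT12, and 9.08, 9.20 and 9.15 at CT18. In knockout fat it read 9.27, 8.62 and 9.10 at CT0, 9.17, 9.41 and 9.19 at CT6, 9.14, 9.09 and 9.34 at CT12, and 9.03, 9.27 and 8.59 at CT18. The 2 lowest arrays were knockout replicate 2 at CT0 and knockout replicate 3 at CT18, and the latter was also the lowest for Cpt1a. As described above, the CT18 array lay toward the other genotype for Ces1d (10.75) and Kcnj15 (8.21). The CT18 difference of -0.18 ± 0.15 became 0.01 without replicate 3 of the knockouts at that time. At CT6 the knockout arrays of Acaa2 all lay above the control arrays, with a difference of 0.15 ± 0.15 that was 0.07 ± 0.16 without the array with high liver markers. Etfdh had knockout means of 9.54, 9.65, 9.68 and 9.67 and control means of 9.69, 9.58, 9.54 and 9.50 at CT0, CT6, CT12 and CT18, and none of its differences passed.

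The genotypes were then compared at each circadian time. At CT0 9 of 10 were lower in knockout fat, with a median of -0.15, and 0 passed (0% of all genes), with 1 at an unadjusted p under 0.05 (5.55%). Without knockout replicate 2 at CT0 the median was -0.03, with 7 of 10 lower. Adipocyte markers moved with it, from a median of -0.10 with that array to 0.15 without it, as did epithelial markers, from 0.38 to 0.000031, and their part in the result was not tested. At CT6 5 of 10 were lower (median 0.0012), and 0 passed adjusted (0%) or unadjusted (3.77%). Without the array with high liver markers 7 of 10 were lower, with a median of -0.10. At CT12 4 of 10 were lower (median 0.03), and 0 passed adjusted (0%) or unadjusted (2.49%). At CT18 2 of 10 were lower (median 0.12), and 0 passed adjusted (0.00502%) or unadjusted (6.05%).

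The arrays of a time were also compared without a model. Knockout and control arrays did not overlap for 0 of the 10 genes at CT0 (10.8% of all genes), for 1 at CT6 (11.3%), for 0 at CT12 (8.09%) and for 1 at CT18 (8.58%), the genes being Acaa2 and Cpt2. Without the 4 arrays that lay toward the other genotype for Ces1d, 10 of 10 genes were higher in knockout fat at CT12 (median 0.15) and 9 of 10 at CT18 (median 0.16), and the median of the mean difference was 0.05 with 8 of 10 above 0. No gene of the 10 passed in that fit, in which 139 genes passed for the mean difference. Etfdh had the lowest p there, with a mean difference of 0.13 ± 0.05 (adjusted p = 0.444). Leaving out arrays because they lay toward the other genotype can by itself enlarge genotype differences. From CT0 to CT12 in knockout fat 10 of 10 genes were higher (median 0.14), 7 of 10 were after a further quantile normalization, and 6 of 10 without knockout replicate 2 at CT0 (median 0.01). For these counts of direction, and those at each time above, no share of all genes is given. A shift common to all genes is therefore not set apart from 1 of these genes.

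As a description of how the genes varied among themselves, Pearson correlations were taken over the 24 arrays after removal of the group means. All 45 pairs were positive, with a median of 0.72, from 0.20 for Cpt1a with Acadl to 0.92 for Cpt2 with Slc25a20. Pairs of other genes were not taken as a background. The 36 pairs without Cpt1a had a median of 0.73, and the 9 pairs with Cpt1a a median of 0.35, the highest of these being 0.70 with Acaa2. Without knockout replicate 2 at CT0 the median of all 45 was 0.59, and Acadl with Acaa2 was the lowest at -0.02. With knockout replicate 2 at CT6, the array with high liver markers, left out as well, the median was 0.49 over 22 arrays. Acadl with Acaa2 was then -0.17, and the 9 pairs with Cpt1a had a median of 0.16. The genes of an array share its RNA input and normalization, and pads can differ in tissue makeup. The part of either in these correlations was not tested. The mean of the 10 genes correlated with that of the adipocyte markers at 0.80 (0.59 without knockout replicate 2 at CT0). It correlated with epithelial markers at -0.70 (-0.28 without that array) and with thermogenic markers at 0.09 (0.23).

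**Figure D4:**
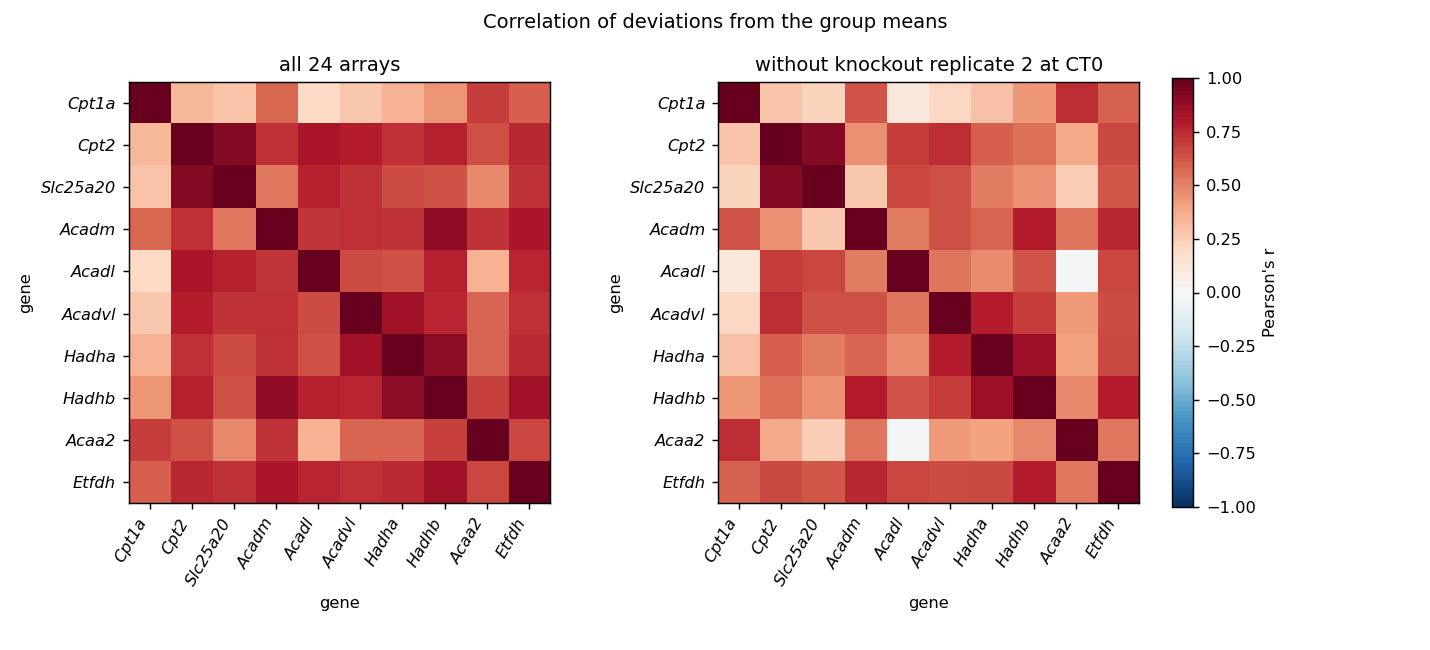
Pearson correlation between each pair of the 10 genes (both axes) after removal of the group means, over 24 arrays (left) and over 23 arrays without knockout replicate 2 at CT0 (right), with the colour scale from -1 to 1. Cpt2 with Slc25a20 is 0.92 on the left and 0.91 on the right, and the row of Cpt1a is paler than the others.

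Outside the set, the genes most like the mean of the 10 over the 24 arrays were Atp5b (Pearson correlation 0.90), which encodes the beta subunit of ATP synthase, Sort1 (0.87), Cpne2 (0.86), Decr1 (0.86) and Mdp1 (0.85). DECR1 is the mitochondrial reductase for polyunsaturated fatty acids. After removal of the group means they were Pcca (0.96), a subunit of propionyl-CoA carboxylase, Decr1 (0.95), Idh3a (0.95), of the citric acid cycle, Sort1 (0.95) and Fam126b (0.94). These 5 followed the mean more closely than the 10 genes that form it, which ran from 0.58 (Cpt1a) to 0.92 (Hadhb). Without knockout replicate 2 at CT0 the highest were Idh3a (0.96), Gnpat (0.95), Decr1 (0.92), Pcca (0.92) and Pex16 (0.91), of which Gnpat and Pex16 encode peroxisomal proteins. Decr1, Idh3a and Pcca were among the 5 highest with and without that array.

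The other genes of the pathway were read from lists. For the mean genotype difference 0.0201% of all genes passed, and 6.07% had an unadjusted p under 0.05. Of 12 further genes of mitochondrial beta-oxidation, 0 passed (median 0.0019, with 2 at an unadjusted p under 0.05). The 2 with the lowest p were Acad11, an acyl-CoA dehydrogenase family gene, at -0.42 ± 0.10 (adjusted p = 0.182) and Acad10 at -0.12 ± 0.05 (adjusted p = 0.789). Group means of Acad11 were 8.02, 8.14, 8.30 and 8.36 in knockout fat and 8.63, 8.62, 8.64 and 8.59 in control fat at CT0, CT6, CT12 and CT18. The knockout mean was the lower at each of the 4 times. Among 8 measured of 11 genes for fatty acid activation and carnitine, 0 passed (median 0.04, 1 unadjusted), and the leading one was Acacb at -0.37 ± 0.12 (adjusted p = 0.532). It encodes the acetyl-CoA carboxylase at the mitochondrial surface that makes malonyl-CoA, the inhibitor of CPT1. Crat, the carnitine acetyltransferase gene, followed at 0.08 ± 0.06 (adjusted p = 0.945). Of 14 regulators of the pathway 0 passed for genotype (median -0.0002, 1 unadjusted), with Klf15 at -0.19 ± 0.07 (adjusted p = 0.655) and Prkaa2 at -0.09 ± 0.06 (adjusted p = 0.903) in the lead.

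The neighbouring pathways gave 0 calls for the mean genotype difference in limma, adjusted (0.0201% of all genes) or at an unadjusted p under 0.05 (6.07%). Of 13 measured of 15 peroxisomal genes the lowest p belonged to Acaa1a (0.08 ± 0.04, adjusted p = 0.850) and Ech1 (0.14 ± 0.09, adjusted p = 0.911). Of 3 measured of 5 ketone body genes they belonged to Oxct1 (0.02 ± 0.08, adjusted p = 0.993) and Bdh1 (0.01 ± 0.06, adjusted p = 0.995), and of 15 measured of 16 citric acid cycle genes to Ogdh (-0.11 ± 0.06, adjusted p = 0.903) and Sdhb (-0.08 ± 0.06, adjusted p = 0.942). The mean of the peroxisomal list correlated with that of the 10 genes at 0.94 after removal of the group means, that of the citric acid cycle at 0.91 and that of the further beta-oxidation genes at 0.87. Without knockout replicate 2 at CT0 these were 0.90, 0.88 and 0.75. For the ketone body list the value was 0.80 (0.62), for the regulators 0.39 (0.30) and for activation and carnitine -0.02 (-0.24). At CT0 15 of 15 citric acid cycle genes had lower means in knockout fat (median -0.16), and 12 of 15 without that array (median -0.09). The share of all genes with lower means is not given here.

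No gene of the pathway or marker lists passed in any comparison other than that of time over both genotypes. There, 0.883% of all genes passed, and the genes that changed in both genotypes together were 1 of 8 measured for activation and carnitine, 3 of 14 regulators and 1 of 10 endothelial markers, Emcn (F = 9.52, adjusted p = 0.0446). Pparg, the nuclear receptor that maintains adipocytes and also 1 of the adipocyte markers, was called at F = 18.9 (adjusted p = 0.0037), with control means of 9.92, 10.51, 10.46 and 9.95 and knockout means of 9.91, 10.45, 10.46 and 10.07 at CT0, CT6, CT12 and CT18. It was thus higher at CT6 and CT12 than at CT0 and CT18 in both genotypes. Acsl4, which activates long-chain polyunsaturated fatty acids, was called at F = 10.8 (adjusted p = 0.0333) and was lowest at CT18, as Cpt1a was, with 8.13 in both genotypes against 8.34 to 8.49 at the other times. The corepressor gene Nrip1 (adjusted p = 0.0191) was higher at CT12 and CT18, and Klf15 (adjusted p = 0.0257), a transcription factor gene of the fasting response, was lowest at CT0. With 1 array left out in turn, Pparg and Nrip1 passed in 24 of 24 fits, Klf15 in 18, Acsl4 in 15 and Emcn in 4. Without the 4 arrays that lay toward the other genotype, Nrip1 (adjusted p = 0.0947), Klf15 (0.0589) and Acsl4 (0.232) did not pass, and Pparg (0.0242) and Emcn (0.0474) did. Acsl4 also did not pass after a further quantile normalization (0.0693), nor did Emcn with arrays centred on their median (0.0640). Klf15 was lost without knockout replicate 1 or control replicates 1 or 3 at CT0, and without knockout replicate 1 or control replicates 2 or 3 at CT12. Acsl4 was lost without control replicate 1 at CT0, knockout replicates 1 or 2 or control replicates 2 or 3 at CT12, and replicates 1 or 3 of either genotype at CT18. The highest adjusted p was 0.0829 for Klf15, without control replicate 1 at CT0, 0.0968 for Acsl4, without control replicate 1 at CT18, and 0.137 for Emcn, without control replicate 1 at CT0.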

How the data were processed

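The deposited values are log2 expression after RMA, per the submitters' processing notes; RMA's version is not named there. RNA was amplified from 50 ng before labelling, per the labels' protocols. Of 35556 probe sets, 21789 named 1 gene symbol, 1621 several and 12146 none; the brightest per symbol left 19938 genes, with array medians of 6.46 to 6.56. Groups followed the labels. Limma 3.58.1 in R 4.3.3 was fitted with 1 mean per group (16 residual degrees of freedom and 5.03 from the prior), Benjamini-Hochberg over all genes, threshold 0.05, in 13 comparisons. Descriptions used Python 3.11.15. The script was tested on simulated data.

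Same-numbered arrays of both genotypes had correlations of their deviations of -0.37 to 0.37, and all 3 exceeded 0.1 at CT0 only. The main fits used no pairing at any time, and a replicate block was fitted as an alternative. Labels call the replicates biological and give no pairing. The 10 genes and all lists were chosen with earlier results of these data known. Named genes outside the 10 are those of a list that passed (at most 4 per list and comparison) or, for genotype, the 2 with the lowest p, and the 5 most alike. Alternatives were another normalization, probe set averages, dim genes left out, other variance models, a replicate block, only the groups compared and each array left out; leaving out the 4 arrays and the other Hadhb probe set were added after seeing the data. The number of arrays limits the precision.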

Additional observations from a re-analysis of the deposited data

How the results depend on the processing

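None of the 10 genes passed in any of the 13 comparisons, and this held in every alternative but one. From CT6 to CT18 in knockout fat the count ranged from 0 to 1 over the fits that left out 1 array, the 1 being Cpt1a without knockout replicate 2 at CT18, a fit in which 115 of all genes passed against 4 with every array. For the mean genotype difference 4 of all genes passed, 0 after a further quantile normalization and 139 without the 4 arrays that lay toward the other genotype. With the replicate block 0 of the 10 genes passed in each comparison, and Cpt2 at CT0 was -0.36 ± 0.15 (adjusted p = 0.815); the block changed no call. Among 4260 refitted values of single genes, those of F tests have no direction and were judged by the threshold alone. Of the 4260, 4111 kept their side of the threshold and, for differences, their direction, and 148 differences changed sign with no call in either fit. The latter were at most 0.18 in size, and at most 0.24 in the alternative. Among genes outside the 10, the change over time of Acsl4 did not pass after a further quantile normalization (adjusted p = 0.0693), nor did that of Emcn with arrays centred on their median (adjusted p = 0.0640). Without those 4 arrays, an alternative added after seeing the data, Acsl4 (adjusted p = 0.232), Nrip1 (0.0947) and Klf15 (0.0589) did not pass over time. Fewer arrays entered, and the cause was not tested. Acacb was called for genotype at -0.53 in that fit. The arrays were left out for lying toward the other genotype, which can by itself enlarge genotype differences, so this call adds no support. With 3 arrays a group, the genotype intervals at single times had their lowest bound at 0.611-fold (Cpt2 at CT0) and their highest at 1.42-fold (Cpt2 at CT18).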
